A study of Homo sapiens with 48 samples.

Results

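XBP1 knockdown over the first day was described in clone 1 of AMO1 cells carrying inducible shRNAs against XBP1. The 6 libraries were chosen by their titles and treatment labels out of 48 in the series. They comprised 3 biological replicates harvested at 0 h and 3 harvested after 24 h of 0.2 µg/ml doxycycline (Dox), the agent that switches the shRNAs on. AMO1 is an established human line from a plasma cell tumor and is used as a multiple myeloma model. Every library came from the same line, which carries 3 shRNAs (labelled sh4,6,7) and was grown from 1 cell. The series also holds clone 18 of the same shRNAs and 2 clones with shRNAs against IRE1, at the same 4 times. No library with a non-targeting shRNA and none of parental cells with Dox was analysed here, so that an effect of Dox itself, or of a day in culture, cannot be told apart from an effect of the knockdown. Each value is from 1 clone, and p-values measure the spread between replicate libraries of that clone.

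XBP1 encodes a transcription factor of the unfolded protein response (UPR), the program by which cells adjust the endoplasmic reticulum (ER) to its load of secretory proteins. IRE1, an ER membrane protein encoded by ERN1, senses unfolded proteins and cuts the XBP1 mRNA, and after religation the spliced mRNA is translated into the active factor XBP1s. XBP1s is known for inducing genes of protein translocation, folding, glycosylation and vesicle traffic, and plasma cells need it for the secretory apparatus that exports antibody. The parallel arms of the UPR run through ATF6, a membrane-bound transcription factor, and through PERK (EIF2AK3), a kinase that raises translation of ATF4. The count table holds 1 value per gene, so that spliced and unspliced XBP1 mRNA were not separated.

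The 6 libraries held 28424128 to 40767202 counts in all, and 3.05% to 3.79% of them fell on mitochondrial genes. Plasma cell markers were present in every library, from 6470 to 14800 CPM (counts scaled to a common library size) of SDC1 and from 1310 to 1570 CPM of IRF4, and 9 of 9 such markers passed the filter on low counts. Markers of T cells, myeloid cells, epithelium, fibroblasts and red cells summed to 8.62 to 9.66 CPM at 0 h and 10.1 to 12.2 CPM at 24 h. CD3E, a T cell receptor subunit, made up most of this sum at 4.44 to 8.41 CPM, and the fibroblast marker DCN and the red cell marker HBA1 were at 0 in all 6 libraries. Of these markers 5 could be tested: CD3E rose by 0.61 on the log2 scale, and CD14 and CDH1 fell from levels under 1 CPM, CDH1 not without the 0 h replicate 1 library described next (adjusted p = 0.0712). Their part in the results was not tested.

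The 0 h replicate 1 library and 2 of the 24 h libraries leaned towards or away from GC-rich transcripts. Over 10591 genes, the deviation of the 0 h replicate 1 library from the mean of all 6 followed GC content with a correlation across genes of 0.70. The value was -0.72 for 24 h replicate 1 and 0.55 for 24 h replicate 2, and the other 3 libraries lay between -0.32 and -0.15. Genes are not independent replicates, and these correlations only describe the libraries. As the lean differed in sign between replicate 1 at 0 h and at 24 h, results below are also given without the 0 h replicate 1 library, or after an offset for GC content and transcript length, where the call of a named gene changes.

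**Figure D1:**
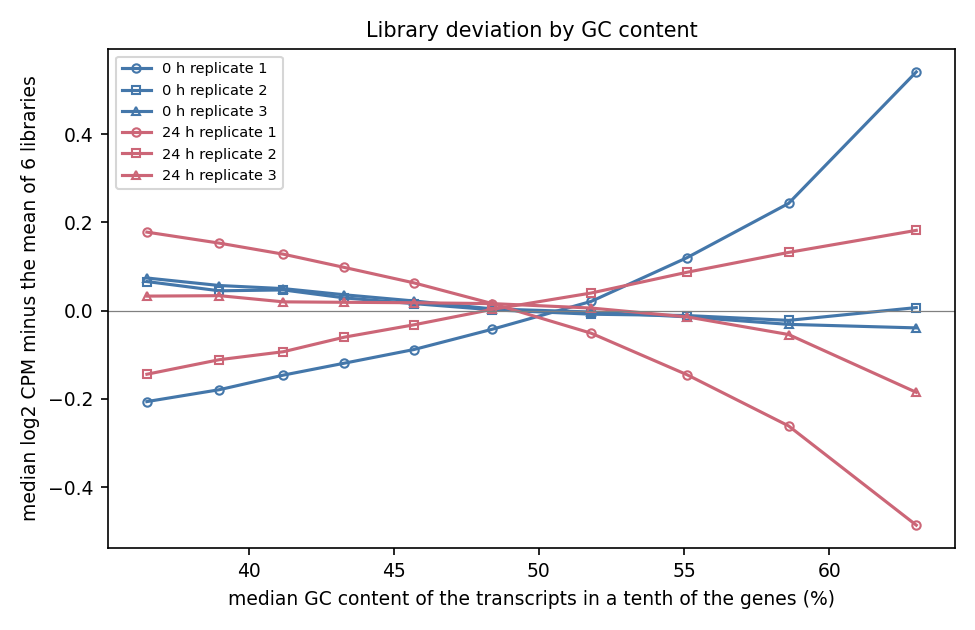
Median deviation of each library from the mean of all 6 (log2 CPM, y axis) in 10 equal groups of genes ordered by GC content of their longest transcript (percent, x axis), with blue lines for 0 h and red lines for 24 h of Dox. The 0 h replicate 1 line climbs to the right and the 24 h replicate 1 line drops, while 0 h replicates 2 and 3 stay nearly flat.

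Of 16603 genes tested with edgeR, 4430 (26.7%) differed between 24 h and 0 h at an adjusted p under 0.05. In all, 2306 genes (13.9%) rose and 2124 (12.8%) fell, and the median log2 fold change over all genes tested was -0.01. Most changes were small: 461 of the genes moved at least 2-fold, 194 of them up and 267 down. For 4237 of the 4430 genes the 3 libraries at 24 h all lay beyond the 3 at 0 h. The same libraries gave the calls, so that this count is largely built into the choice and supports nothing by itself. The fit took its spread from all 12 libraries of the clone, and with only the 6 compared 2086 genes were called, 1231 higher and 855 lower. Leaving out the 0 h replicate 1 library gave 2024 rises and 1557 falls among 16830 genes. Leaving out 24 h replicate 3 gave 1780 and 1276, and the GC offset gave 3305 and 4042 among 16603. Counts of list members from these fits are to be read beside these totals.

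XBP1 mRNA was strongly reduced. Its level was 154, 168 and 171 CPM in the 0 h libraries and 47.1, 41.3 and 42.5 CPM in the 24 h libraries. The groups did not overlap, and the fall was 3.76-fold (log2 fold change -1.91, SE 0.07, adjusted p = 3.91e-08, edgeR). Among 14 genes listed as sensors and regulators of the UPR, 6 rose (42.9%) and 2 fell (14.3%), where the median was 0.13. Over all genes tested 13.9% rose and 12.8% fell. The list also holds EIF2AK4 and EIF2AK1, kinases that sense other stresses. ERN1 itself stood at 184, 189 and 181 CPM at 0 h and at 303, 331 and 306 CPM at 24 h, a 1.70-fold rise (adjusted p = 7.05e-07). All 3 later libraries were thus well above the earlier ones. CREB3L4 and CREB3L2, ER-anchored relatives of ATF6, rose by 0.84 and 0.18 on the log2 scale. EIF2AK4, the amino acid sensing kinase GCN2, rose by 0.50, and MBTPS2, a protease that releases ATF6, rose by 0.29. EIF2AK1, the heme-regulated kinase, rose by 0.14, and MBTPS1, the protease that cuts ATF6 first, fell by 0.15. ATF6 (0.02) and EIF2AK3 (0.12) did not pass the test. Without the 0 h replicate 1 library 4 of the 14 rose and 2 fell, and MBTPS2 (adjusted p = 0.0617) and EIF2AK1 (adjusted p = 0.0728) were no longer called. After the GC offset 5 rose and 4 fell: EIF2AK1 (0.07, adjusted p = 0.0654) and CREB3L2 (0.07, adjusted p = 0.0805) lost their calls, and ATF6 was called lower (-0.11, adjusted p = 0.00816).

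Genes at the entry to the ER fell widely. Of 26 tested genes for protein translocation and signal peptide processing, 17 fell and none rose, with a median of -0.36, beside 12.8% falls over all genes. SEC61B, the beta subunit of the translocon channel, was at 66.3, 65.8 and 63.5 CPM at 0 h and at 22.8, 33.9 and 31.1 CPM at 24 h. It fell 2.23-fold (log2 -1.16, SE 0.15, adjusted p = 0.000226). SEC61A1, the channel subunit itself, fell 1.97-fold, from 1046, 1011 and 989 CPM to 491, 536 and 522 CPM. SSR1, a subunit of the translocon-associated TRAP complex, fell 1.97-fold as well, from 432, 528 and 522 CPM to 277, 220 and 256 CPM. In none of these 3 genes did the groups overlap. SEC61G, the small gamma subunit, fell by 0.80 on the log2 scale. HM13, the signal peptide peptidase, fell by 0.61, as did the signal peptidase subunit SPCS3. The signal recognition particle changed less evenly: SRP19 fell by 0.57 and SRP68 by 0.24, whereas SRP14 (-0.02), SRP54 (-0.06) and SRP9 (-0.19) did not pass the test. After the GC offset SRP54 was called lower (-0.17, adjusted p = 0.00222). SPCS2 was also called lower, but at 1.51 to 2.90 CPM on average its reads may be shared with a near-identical copy and the call is uncertain.

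**Figure D2:**
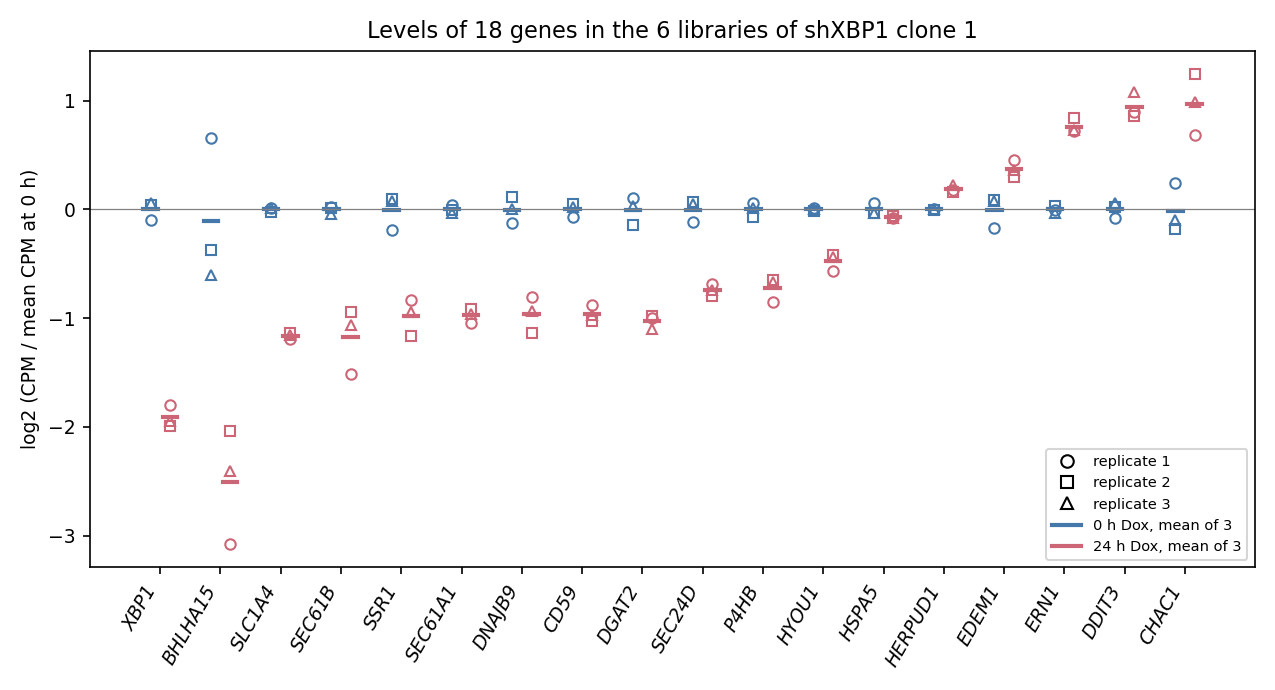
Level of 18 genes in each of the 6 libraries as log2 of CPM over the mean CPM at 0 h (y axis), with markers for replicates 1, 2 and 3, blue for 0 h, red for 24 h, and bars for the mean of the 3 log ratios. XBP1, BHLHA15 and the translocation genes lie well below 0 at 24 h, HSPA5 stays near 0, and ERN1, DDIT3 and CHAC1 lie above.

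Genes of glycosylation in the ER also fell in part. Of 12 oligosaccharyltransferase subunits, the enzyme that moves the glycan onto nascent chains, 8 fell and none rose (median -0.24). OSTC fell by 0.72 on the log2 scale, the catalytic subunit STT3A by 0.57 and the ribophorin RPN1 by 0.48. STT3A was at 612, 668 and 658 CPM at 0 h and at 443, 414 and 448 CPM at 24 h, without overlap. The alternative catalytic subunit STT3B (0.09) did not pass the test, nor did TUSC3 (1.02). Among 28 genes that build or trim the N-glycan precursor, 8 fell and 1 rose, with a median of -0.15. ALG1 and ALG2, mannosyltransferases of the precursor, fell by 0.59 and 0.46, PRKCSH, a subunit of glucosidase II, fell by 0.51, and MOGS, glucosidase I, fell by 0.40. PRKCSH missed the threshold without the 0 h replicate 1 library (adjusted p = 0.0974). The exception was UGGT2, a relative of the folding sensor UGGT1, which rose by 0.45.

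Vesicle traffic between the ER and the Golgi was the largest secretory group, with 24 of 49 tested genes falling and 1 rising (median -0.27). SEC24D, a cargo adaptor of the COPII coat, was at 140, 159 and 156 CPM at 0 h and at 94.3, 86.9 and 90.4 CPM at 24 h. It fell by 0.74 on the log2 scale (SE 0.06, adjusted p = 9.42e-06). COPE, a subunit of the COPI coat, had the largest fall, by 0.82, but missed the threshold without the 0 h replicate 1 library. TMED9, a p24 cargo receptor, fell by 0.73, SURF4, another cargo receptor, by 0.62, and KDELR2, which returns escaped chaperones to the ER, by 0.57. The paralogs of SEC24D differed: SEC24C fell by 0.26, whereas SEC24A (0.02) and SEC24B (0.07) did not pass the test. COPG2, a COPI subunit, rose by 0.30, while its paralog COPG1 fell by 0.21. In the Golgi, 9 of 26 genes for glycosylation and sugar nucleotides fell and 2 rose. GMPPA and GMPPB, which regulate and make GDP-mannose, fell by 0.57 and 0.56. The sialyltransferase ST6GAL1 and the O-glycan initiating enzyme GALNT3 rose by 0.52 and 0.54. Of 10 subunits of the ER membrane protein complex, which inserts membrane proteins, 4 fell and none rose, led by EMC10 (-0.80), and 2 of 10 fell without the 0 h replicate 1 library, EMC10 no longer among them (adjusted p = 0.0602).

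ER chaperones did not move as a block. Of 26 tested, 15 fell and 2 rose (median -0.35), and without the 0 h replicate 1 library 11 fell and 1 rose. DNAJB9, a cochaperone of BiP, was at 43.9, 51.7 and 47.9 CPM at 0 h and at 27.3, 21.7 and 25.0 CPM at 24 h, a 1.94-fold fall (adjusted p = 2.54e-05). SDF2L1, a partner of the ER cochaperones, fell by 1.04 on the log2 scale (adjusted p = 0.0144), with 85.8 CPM in the 0 h replicate 1 library and 20.8 to 47.1 CPM in the other 5. Without that library its log2 fold change was -0.64 and missed the threshold (adjusted p = 0.0548). The prolyl isomerase FKBP11 fell by 0.82, MZB1, an ER protein of B cells that assists antibody assembly, by 0.75, and HYOU1, a nucleotide exchange factor of BiP, by 0.47. HSPA5, the major chaperone BiP, was at 1981, 1856 and 1857 CPM at 0 h and at 1800, 1815 and 1795 CPM at 24 h. All 3 later libraries lay below the earlier ones, but the difference of -0.07 did not pass the test (adjusted p = 0.179), and after the GC offset it was -0.18 (adjusted p = 0.0335). HSP90B1, the ER form of HSP90, went the other way, from 4153, 4762 and 4859 CPM to 6611, 5540 and 6130 CPM (log2 0.41, adjusted p = 0.00165). FKBP10 was also called higher, by 1.49, at a mean of 0.12 CPM at 0 h and 0.37 CPM at 24 h, and missed the threshold without the 0 h replicate 1 library.

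Among 24 disulfide isomerases and oxidases, 8 fell and none rose. P4HB, the major protein disulfide isomerase, was at 1289, 1183 and 1249 CPM at 0 h and at 687, 793 and 779 CPM at 24 h, a 1.65-fold fall. TXNDC12, TXNDC15 and PRDX4, which belong to the thioredoxin and peroxiredoxin families, fell by 0.49, 0.47 and 0.47 on the log2 scale. PDIA6 (-0.10) and the oxidase ERO1A (-0.05) did not pass the test, but were called lower after the GC offset (-0.14 and -0.13, adjusted p = 0.00176 and 0.00414). ER-associated degradation, the route by which misfolded proteins leave the ER for the proteasome, was split, with 11 of 29 genes lower and 3 higher. The ubiquitin ligase SYVN1 (HRD1) fell by 0.62, the conjugating enzyme UBE2J2 by 0.62, the membrane proteins SELENOS and DERL1 by 0.53 and 0.42. EDEM1, a lectin that delivers glycoproteins for degradation, rose from 248, 297 and 294 CPM to 382, 344 and 359 CPM (log2 0.37, adjusted p = 0.00172). HERPUD1, a scaffold of the ligase complex, rose by a small margin, from 591, 589 and 593 CPM to 670, 661 and 691 CPM (log2 0.19, adjusted p = 0.00363). In both of these genes the groups did not overlap. TMEM129, a ligase, was the third member to rise, by 0.63.

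**Figure D3:**
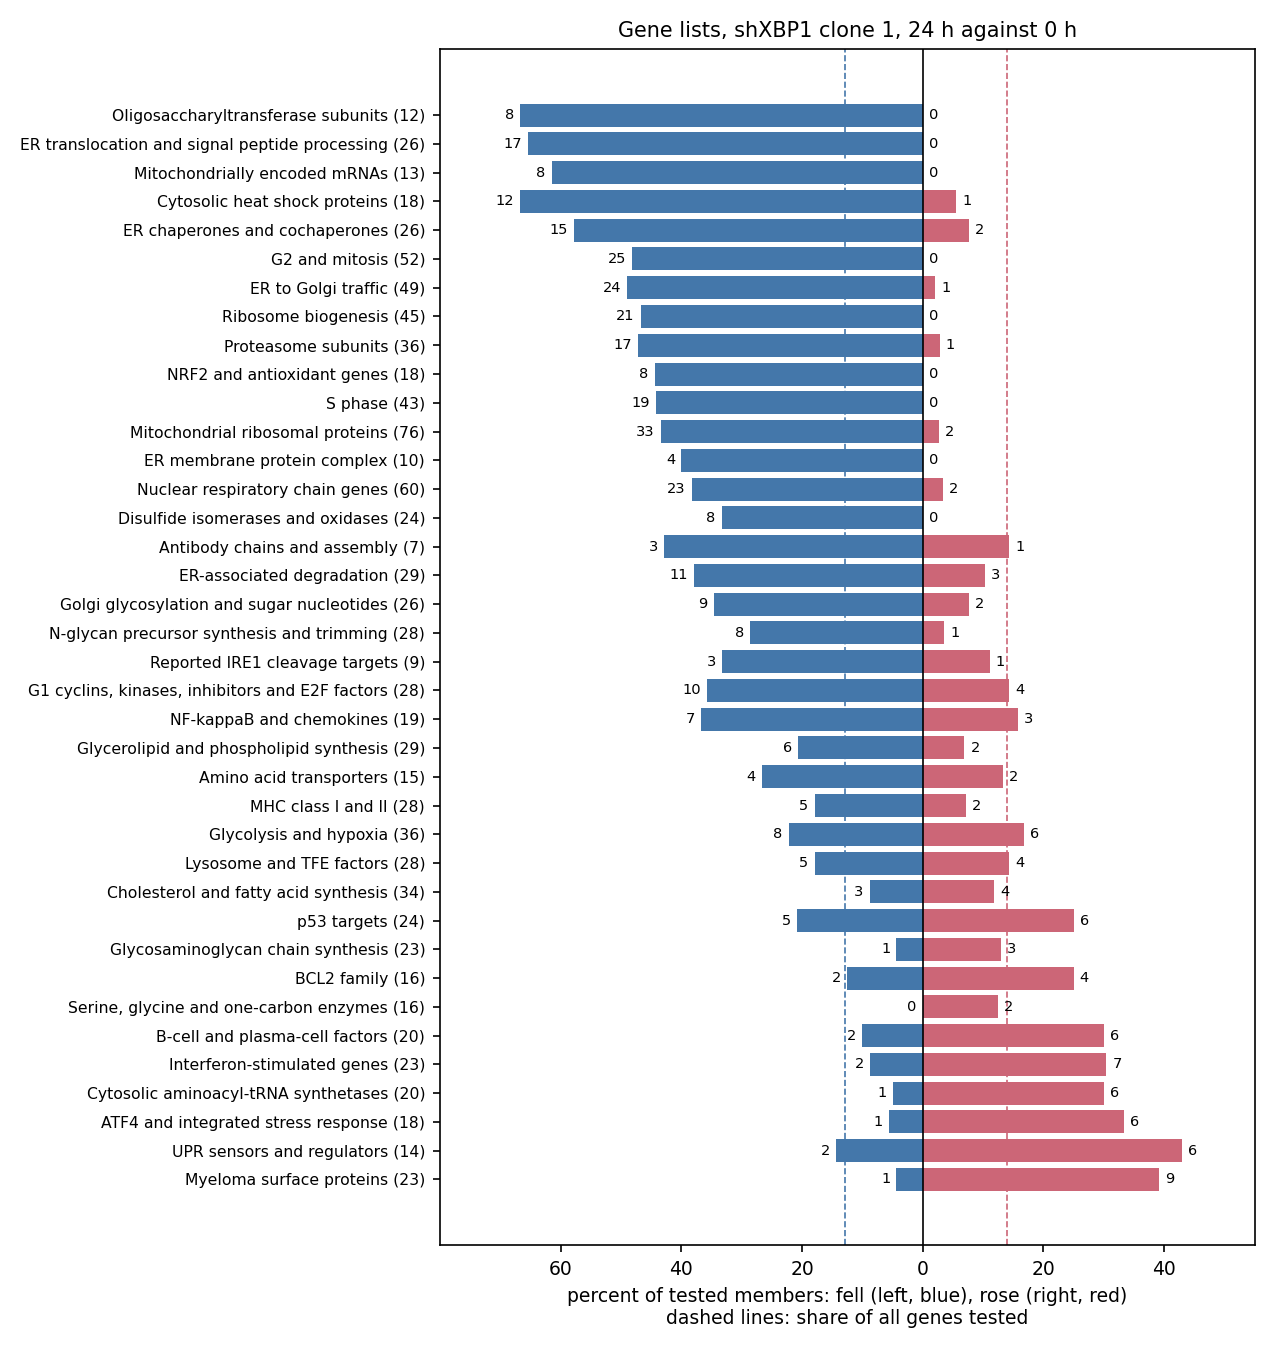
Percent of the tested members of 38 gene lists that fell (blue, left) or rose (red, right) at 24 h, with the number tested in brackets, the numbers called at the bar ends, and dashed lines at the shares over all genes tested (12.8% fell, 13.9% rose). Oligosaccharyltransferase subunits and translocation genes have no rises, and myeloma surface proteins and UPR sensors have the largest shares of rises.

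Promoter windows from RefSeq (GRCh38.p14), 250 bases before to 50 after the start of a gene, were matched by symbol to 10554 of the 16603 genes tested. Motifs were searched on both strands. They were the ER stress element (ERSE: CCAAT, 9 bases of any kind, CCACG), ERSE-II (ATTGG, 1 base, CCACG), the UPR element (UPRE: TGACGTGG), the XBP1 core (GCCACGT), and for comparison the composite site of ATF4 (TGATG, 1 base, AA). The UPRE read on the other strand begins like the end of the core, so that a single stretch can match both, and ERSE-II can overlap the core as well. The XBP1 core was in 4.45% of all windows, in 6.24% of those of genes that fell and in 3.47% of those of genes that rose. Among secretory genes that fell it was in 24 of 69 windows (34.8%), and among secretory genes that were not called in 12 of 63. The UPRE went the other way, in 5 of 69 (7.25%) and 11 of 63 (17.5%). Among genes that fell at least 2-fold the core was in 5 of 133 windows (3.76%), below the share of all windows. Among genes that fell in both shXBP1 clones it was in 29 of 116 windows (25.0%, exact 95% interval 17.4% to 33.9%). That interval takes the genes as independent, which they are not. Among all tested secretory genes, called or not, the core was in 37 of 136 windows (27.2%). The UPRE was in 0.910% of all windows and in 1.07% of those of genes that fell. ERSE was in 0.133% and 0.403% (only 14 and 6 windows) and ERSE-II in 0.0948% and 0.268% (only 10 and 4). The ATF4 composite was in 1.74% and 1.48%. These matches describe the letters in the windows and do not show that a factor was bound.

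The stretches around the matches are shown for 4 genes that fell without overlap and carry them (XBP1 itself, SSR1, SLC1A4 and SURF4), for HYOU1, which fell less, and for HSPA5 and HERPUD1, which carry the same kinds of motif and were not called lower. Capitals mark ERSE in XBP1 and HSPA5, the core in SSR1, SLC1A4 and SURF4, the UPRE joined to ERSE-II and then ERSE-II alone in HYOU1, and in HERPUD1 the ATF4 composite followed by ERSE-II joined to the core. All are on the strand of the gene, 5′ to 3′, so that a match on the other strand reads as its reverse complement.
XBP1, chr22:28800588-28800636, minus strand: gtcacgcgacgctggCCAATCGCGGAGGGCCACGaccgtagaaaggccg
SSR1, chr6:7313266-7313352, minus strand: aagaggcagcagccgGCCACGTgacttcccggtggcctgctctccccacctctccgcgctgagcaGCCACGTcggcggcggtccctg
SLC1A4, chr2:64988388-64988424, plus strand: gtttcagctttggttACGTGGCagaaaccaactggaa
SURF4, chr9:133376092-133376128, minus strand: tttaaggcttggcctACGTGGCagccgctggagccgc
HYOU1, chr11:119057259-119057408, minus strand: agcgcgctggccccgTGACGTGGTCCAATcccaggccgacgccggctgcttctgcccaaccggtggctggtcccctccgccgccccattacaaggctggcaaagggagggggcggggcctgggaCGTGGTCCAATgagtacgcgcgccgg
HSPA5, chr9:125241376-125241424, minus strand: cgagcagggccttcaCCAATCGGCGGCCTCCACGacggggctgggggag
HERPUD1, chr16:56931951-56932051, plus strand: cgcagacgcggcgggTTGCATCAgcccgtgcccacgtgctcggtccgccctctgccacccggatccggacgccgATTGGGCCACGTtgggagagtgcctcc
SLC1A4, a transporter of small neutral amino acids, was at 296, 288 and 297 CPM at 0 h and at 128, 134 and 132 CPM at 24 h. Its 2.24-fold fall was measured with a small error (log2 -1.16, SE 0.04, adjusted p = 3.91e-08). The ERSE of XBP1 is 1 of 14 in all windows.

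The 10 largest falls by the rule for naming genes were only partly secretory. FOS, EGR1 and JUN, immediate-early transcription factors, fell by 2.61, 2.59 and 2.01 on the log2 scale. EGR1 was at 70.6, 91.3 and 63.0 CPM at 0 h and at 10.5, 15.6 and 11.2 CPM at 24 h. DHRS2, a short-chain dehydrogenase, fell from 8.24, 7.71 and 7.71 CPM to 1.13, 1.49 and 1.41 CPM, a 5.85-fold loss. BHLHA15 (MIST1), a transcription factor of secretory cells, was at 12.8, 6.29 and 5.37 CPM at 0 h and at 0.968, 1.98 and 1.54 CPM at 24 h. Its groups did not overlap, and its log2 fold change was -2.44, or -1.93 without the 0 h replicate 1 library. RGS1, which damps G protein signaling, had a log2 fold change of -1.97 and MIR22HG, a microRNA host transcript, one of -1.90. Beside XBP1, the other two were MGAT2, a Golgi N-glycan enzyme, and UBE2S, a ubiquitin-conjugating enzyme of mitosis. Both rested in large part on the 0 h replicate 1 library, which held 13.8 and 40.7 CPM against at most 3.49 and 12.9 CPM in any other. MGAT2 missed the threshold without it (adjusted p = 0.0888), and UBE2S then fell by 1.15 (adjusted p = 0.00819). Reads of UBE2S may be shared with near-identical copies.

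The 10 largest rises by the same rule, of which 9 are given here, were weaker and of mixed function. BMF, a proapoptotic BH3-only protein, was at 5.78, 6.38 and 5.23 CPM at 0 h and at 12.3, 15.1 and 14.9 CPM at 24 h, a 2.42-fold rise (adjusted p = 9.99e-06). AMPD1, an AMP deaminase, rose 2.46-fold, from 10.1, 12.3 and 10.0 CPM to 27.2, 25.1 and 27.5 CPM. The carboxylesterase CES3 rose by 1.35 on the log2 scale, the cerebellin CBLN3 by 1.31, and the thrombospondin THBS3 by 1.27. TCP11L2 rose by 1.26, and the kinase anchor AKAP6 and the zinc finger gene ZNF780A by 1.25 each. CES3, CBLN3 and AKAP6 were low throughout, with at most 5.43 CPM in any library. The largest of these rises by fold, of the ribosomal pseudogene RPS7P1 (1.51), came from a single library, 24 h replicate 2. RPS7P1 had 136 CPM there against 19.7 to 28.6 CPM in the other 5, and its reads may belong to copies of the parent gene. It missed the threshold without the 0 h replicate 1 library (adjusted p = 0.0945).

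Stress genes of the ATF4 arm rose in part. Of 18 tested genes of the integrated stress response, 6 rose and 1 fell (median 0.08), against 13.9% rises over all genes. DDIT3 (CHOP), a transcription factor of ER stress, was at 23.1, 24.9 and 25.4 CPM at 0 h and at 45.5, 44.4 and 51.8 CPM at 24 h, a 1.93-fold rise (adjusted p = 9.42e-06). CHAC1, which degrades glutathione, was at 12.3, 9.16 and 9.72 CPM and then at 16.7, 24.6 and 20.5 CPM, a 1.98-fold rise. The other members to rise were CTH, an enzyme of cysteine synthesis (log2 1.07), DDIT4, an inhibitor of mTORC1 signaling (1.01), KLHL24 (0.91) and SESN2, a stress-induced sestrin (0.39). ATF5 fell by 0.73. ATF4 itself (-0.14), TRIB3 (-0.15), PPP1R15A (-0.26) and ASNS (0.13) did not pass the test, and ASNS had only 0.512 to 1.35 CPM. After the GC offset PPP1R15A was called lower (-0.21, adjusted p = 0.00108). Of 20 cytosolic aminoacyl-tRNA synthetases, 6 rose and 1 fell. Their rises were between 0.17 (WARS1) and 0.31 (SARS1 and QARS1), and KARS1 fell by 0.20. Among 16 enzymes of serine, glycine and one-carbon metabolism 2 rose, among them ALDH1L2 by 0.40, and none fell. Amino acid transporters were mixed, with 2 of 15 higher and 4 lower, among them SLC7A5 and SLC3A2, the 2 chains of one exchanger, which fell by 0.72 and 0.51. SLC7A7, of another exchanger, rose by 0.91.

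Antibody chains and surface proteins did not move together. IGHA1, the IgA heavy chain constant gene, was at 16570, 11790 and 11870 CPM at 0 h and at 4695, 7936 and 6069 CPM at 24 h (log2 -1.10, adjusted p = 0.00216). IGKC, the kappa light chain constant gene, rose from 27860, 26730 and 26730 CPM to 32510, 36350 and 35660 CPM (log2 0.36, adjusted p = 0.000977). Heavy chain genes share near-identical sequence, and IGHA1 and IGHA2 (-1.47) may divide reads between them. JCHAIN, which joins IgA and IgM into polymers, did not pass the test (0.20), but was called higher after the GC offset (0.23, adjusted p = 6.82e-05). Of the 7 tested antibody genes 3 fell and 1 rose, and 2 fell and 1 rose without the 0 h replicate 1 library. SDC1 (CD138), the plasma cell proteoglycan, fell from 14770, 11810 and 10970 CPM to 6475, 9503 and 7818 CPM. Among 23 surface proteins studied in myeloma it was the only one to fall, and 9 rose. These were ITGB7, an integrin subunit (0.99), CD48, LY9 and SLAMF7, of the SLAM family (0.52, 0.51 and 0.42), CD38 (0.45), GPRC5D (0.42), CD28 (0.36), TNFRSF17, the antigen BCMA (0.32), and NCAM1 (0.30). CD38 was at 193, 212 and 198 CPM at 0 h and at 280, 270 and 274 CPM at 24 h, without overlap. After the GC offset 9 of the 23 still rose and 7 fell, beside 3305 rises and 4042 falls among all 16603 genes. In RNA from whole cultures, fewer cells with a gene on and less RNA per cell cannot be told apart.

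Transcription factors of B cells and plasma cells moved both ways. Of 20 tested 6 rose (30%) and 2 fell (10%), beside 13.9% and 12.8% over all genes. ZBTB20, a zinc finger repressor, rose by 0.80 on the log2 scale, but at low levels, from a mean of 0.872 to 1.52 CPM. BACH2, a repressor of plasma cell fate, rose by 0.52. TCF3, the E2A gene, fell by 0.63 but missed the threshold without the 0 h replicate 1 library (adjusted p = 0.239). IRF4, a factor that myeloma cells depend on, was at 1316, 1418 and 1427 CPM at 0 h and at 1568, 1504 and 1519 CPM at 24 h. Its rise of 0.14 on the log2 scale passed the test (adjusted p = 0.0355) but not without the 0 h replicate 1 library (adjusted p = 0.0558) nor after the GC offset (0.05, adjusted p = 0.117). PRDM1, the plasma cell repressor BLIMP1, fell by 0.18 (adjusted p = 0.0117), and MYC (-0.28, adjusted p = 0.063) did not pass the test, but was called lower after the GC offset (-0.32, adjusted p = 0.0168). Of the 9 plasma cell markers 4 rose and 4 fell.

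Proliferation genes fell by small amounts. Of 43 tested S phase genes 19 fell and none rose (median -0.19), and of 52 genes of G2 and mitosis 25 fell and none rose (median -0.24). PCNA, the sliding clamp of replication, was at 542, 547 and 564 CPM at 0 h and at 386, 375 and 383 CPM at 24 h (log2 -0.53, adjusted p = 4.29e-06). The groups were well apart and each was tight. CDC6, which loads the replicative helicase, fell by 0.71, RRM2, a subunit of ribonucleotide reductase, by 0.76, and the helicase subunit MCM4 by 0.45. UHRF1, a reader of hemimethylated DNA, had the largest fall of the list, by 0.90. In mitosis CDC20, an activator of the anaphase-promoting complex, fell from 166, 144 and 147 CPM to 87.9, 93.2 and 101 CPM (log2 -0.69). TUBB4B fell by 0.78, TACC3 by 0.62 and BIRC5, the survivin gene, by 0.51. Without the 0 h replicate 1 library 20 of 43 and 29 of 52 fell, and after the GC offset 34 and 47, again with no rises. Over all genes these 2 fits called 1557 falls of 16830 and 4042 of 16603. Among 28 cyclins, kinases, inhibitors and E2F factors of G1, 10 fell and 4 rose. The inhibitor CDKN1A fell by 0.25 and E2F1 by 0.35, and both missed the threshold without the 0 h replicate 1 library, and E2F1 also after the GC offset (-0.13, adjusted p = 0.0789). RBL2, a pocket protein of the retinoblastoma family, rose by 0.70.

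Mitochondrial and housekeeping groups also held more falls than rises, beside 12.8% falls and 13.9% rises over all genes. Of 13 mRNAs encoded in the mitochondrial genome, 8 fell and none rose (median -0.31). MT-ND6, the only one of them on the light strand, was at 606, 567 and 636 CPM at 0 h and at 365, 392 and 347 CPM at 24 h, a log2 fold change of -0.71. MT-ND1, MT-ND5 and MT-CYB fell by 0.55, 0.52 and 0.47. Of 60 nuclear genes of the respiratory chain 23 fell and 2 rose, and of 76 mitochondrial ribosomal proteins 33 fell and 2 rose. Without the 0 h replicate 1 library these counts were 16 and 18 falls. Of 45 ribosome biogenesis genes 21 fell and none rose, with the nucleolar proteins NHP2 (-0.75), NOP16 (-0.46) and NCL (-0.36) among them. Of 36 proteasome genes 17 fell, and the 1 rise was that of NFE2L1, the transcription factor that induces proteasome subunits (0.40). Of 18 cytosolic heat shock proteins 12 fell and 1 rose. HSPB1 (-0.86, adjusted p = 0.0562) did not pass the test, and the largest fall that did was that of HSP90AA1, which went from 1230, 1345 and 1351 CPM to 986, 806 and 916 CPM (log2 -0.54). Of 18 antioxidant genes 8 fell and none rose, among them the ferritin light chain FTL (-0.69) and NQO1 (-0.26).

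The remaining lists had few calls or calls both ways. Over all genes tested 13.9% rose and 12.8% fell, and several of these lists lay near those shares. In cholesterol and fatty acid synthesis, for example, 11.8% rose and 8.82% fell. Of 9 mRNAs reported elsewhere as cleaved by IRE1, 3 fell and 1 rose. CD59, a complement inhibitor, fell from 283, 308 and 302 CPM to 162, 146 and 152 CPM (log2 -0.96, adjusted p = 3.91e-07). DGAT2, which makes triglyceride, fell by 1.02 and TAPBP, the tapasin gene, by 0.56, whereas HGSNAT, a lysosomal enzyme, rose by 0.59 and BLOC1S1 (-0.14, adjusted p = 0.315) did not pass the test. In 34 genes of cholesterol and fatty acid synthesis 4 rose and 3 fell, and in 29 of glycerolipid synthesis 2 rose and 6 fell. In 23 genes for glycosaminoglycan chains 3 rose and 1 fell, the latter being CHPF, a chondroitin polymerizing factor (-1.68). The p53 targets (24 genes, 6 rises and 5 falls), the BCL2 family (16, 4 and 2), genes of NF-kappaB and chemokines (19, 3 and 7), interferon-stimulated genes (23, 7 and 2), MHC genes (28, 2 and 5), glycolysis and hypoxia genes (36, 6 and 8) and lysosomal genes (28, 4 and 5) went both ways. Single members moved more than their lists: BTG2, an antiproliferative factor, rose by 1.03, STAT2, of interferon signaling, by 0.82, BCL2 by 0.54 and TNFAIP3, the inhibitor A20, by 0.59, while the inhibitor NFKBIA fell by 0.93 and the chemokine receptor CXCR4 by 0.85.

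Clone 18, with the same shRNAs, was used to see which of these changes a separate clone shared. It held no library in common with clone 1. There XBP1 stood at 158, 169 and 158 CPM at 0 h and at 61.4, 57.5 and 59.7 CPM at 24 h, a log2 fold change of -1.44, which differed from that of clone 1 by -0.44 (adjusted p = 0.00858). Of 17113 genes tested over both clones, 98 rose (0.573%) and 298 fell (1.74%) in clone 18. These calls took their spread from the 12 libraries of both clones at 0 and 24 h. The calls of clone 1 took theirs from its own time course. The counts of the clones thus come from different fits, and their sizes do not compare the strength of the responses. Of the genes tested in both, 138 fell in both clones, which is 6.5% of the falls in clone 1 and 46.3% of those in clone 18. Only 20 rose in both, which is 0.869% and 20.6%. In opposite directions, 45 rose in clone 1 and fell in clone 18, and 23 fell in clone 1 and rose in clone 18. The genes that fell in both, by size in clone 1, began with XBP1, MIR22HG, HID1, TMEM165, YIF1A, SLC1A4, SEC61B, DGAT2, SSR1 and SEC61A1, leaving out 1 without a symbol. HID1, a protein of dense core vesicle formation, had log2 fold changes of -1.56 in clone 1 and -1.87 in clone 18, TMEM165, a Golgi ion transporter, of -1.43 and -0.91, and YIF1A, of ER to Golgi traffic, of -1.36 and -0.93. SLC1A4, SEC61B, SSR1 and SEC61A1 fell by 0.76, 0.83, 0.77 and 0.85 in clone 18.

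The test of the difference in 24 h response between the clones called 1901 genes (11.1%). Of these, 1309 (7.65%) were higher in clone 1 than in clone 18 and 592 (3.46%) were lower. In the secretory lists these were 1 of 26 translocation genes, 1 of 12 oligosaccharyltransferase subunits, 2 of 26 chaperones, 5 of 49 traffic genes and 5 of 29 genes of ER-associated degradation, 4 of the last higher in clone 1 and 1 lower. Medians in clone 1 and clone 18 were -0.36 and -0.36 for translocation, -0.24 and -0.30 for the oligosaccharyltransferase and -0.27 and -0.25 for traffic. A response that does not pass the test of the difference is not shown to be equal. In G2 and mitosis 13 of 52 genes were lower in clone 1, and the median in clone 18 was 0.04 with no member called. For S phase genes 5 of 43 were lower, for mitochondrial mRNAs 5 of 13, for nuclear respiratory genes 9 of 60 and for ribosome biogenesis 7 of 45. In glycolysis and hypoxia 12 of 37 genes rose in clone 18 with a median of 0.22, and 9 were lower in clone 1. Of 19 integrated stress genes 6 were higher in clone 1, of 22 surface proteins 9, and of 20 aminoacyl-tRNA synthetases 5.

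**Figure D4:**
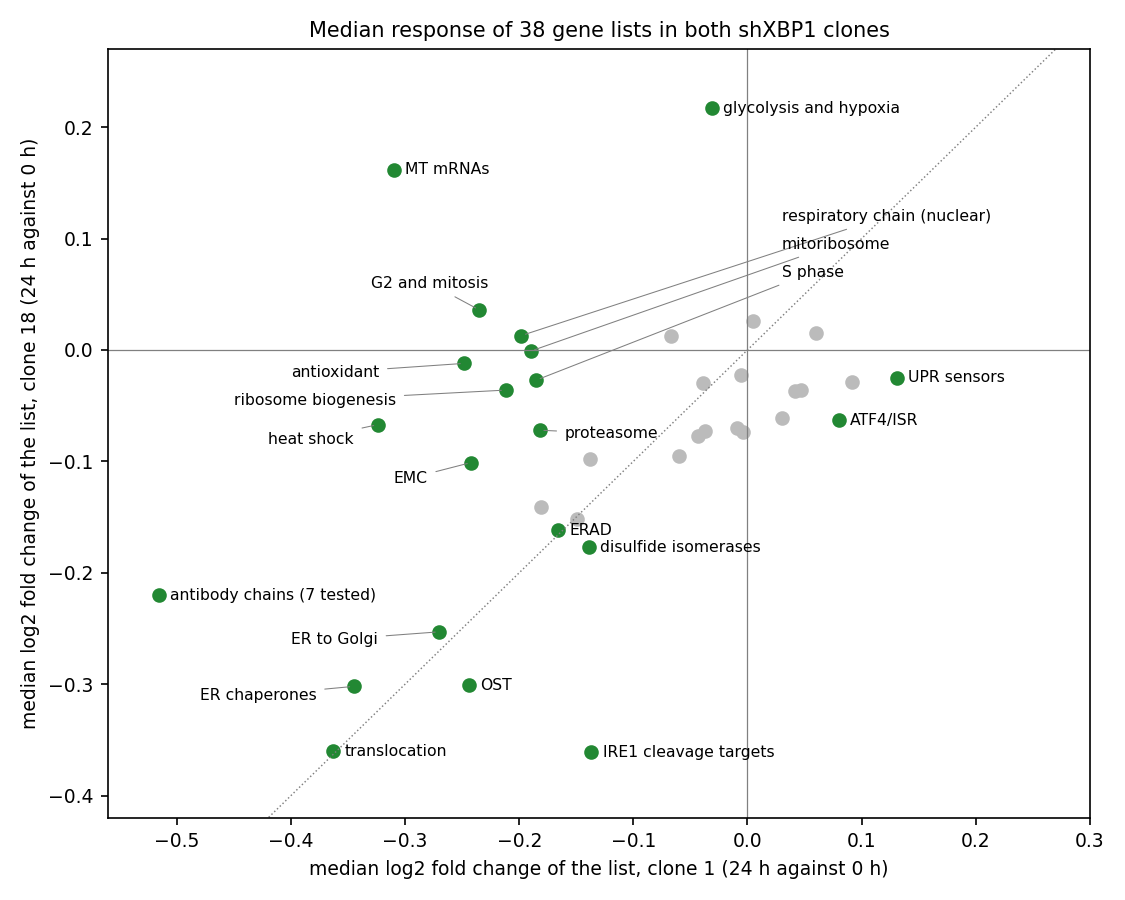
Median log2 fold change (24 h against 0 h) of 38 gene lists in clone 1 (x axis) and clone 18 (y axis), with a dotted line of equality. Translocation, oligosaccharyltransferase, traffic and chaperone lists lie low in both clones, whereas proliferation, mitochondrial and ribosome biogenesis lists lie below 0 in clone 1 and near or above 0 in clone 18.

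Single stress genes went apart in the clones. ERN1 did not pass the test in clone 18 (-0.04), where it was at 390 to 398 CPM at 0 h and 369 to 395 CPM at 24 h, and the difference from clone 1 was 0.83 (adjusted p = 1.45e-05). DDIT3 was at 60.2, 52.6 and 58.7 CPM at 0 h in clone 18 and at 43.4, 40.9 and 43.6 CPM at 24 h, a fall of 0.42 that differed from clone 1 by 1.40. BTG2, outside the rule for naming genes in this comparison and picked after its values were seen, fell by 0.73 in clone 18. EGR1 rose there by 3.00, from 5.16, 3.25 and 3.70 CPM to 27.6, 29.3 and 37.7 CPM. In these 4 genes the libraries of the clones did not overlap at 0 h, and at 24 h the levels of ERN1 and DDIT3 were nearer to each other. The part of the starting level in the difference was not tested.

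**Figure D5:**
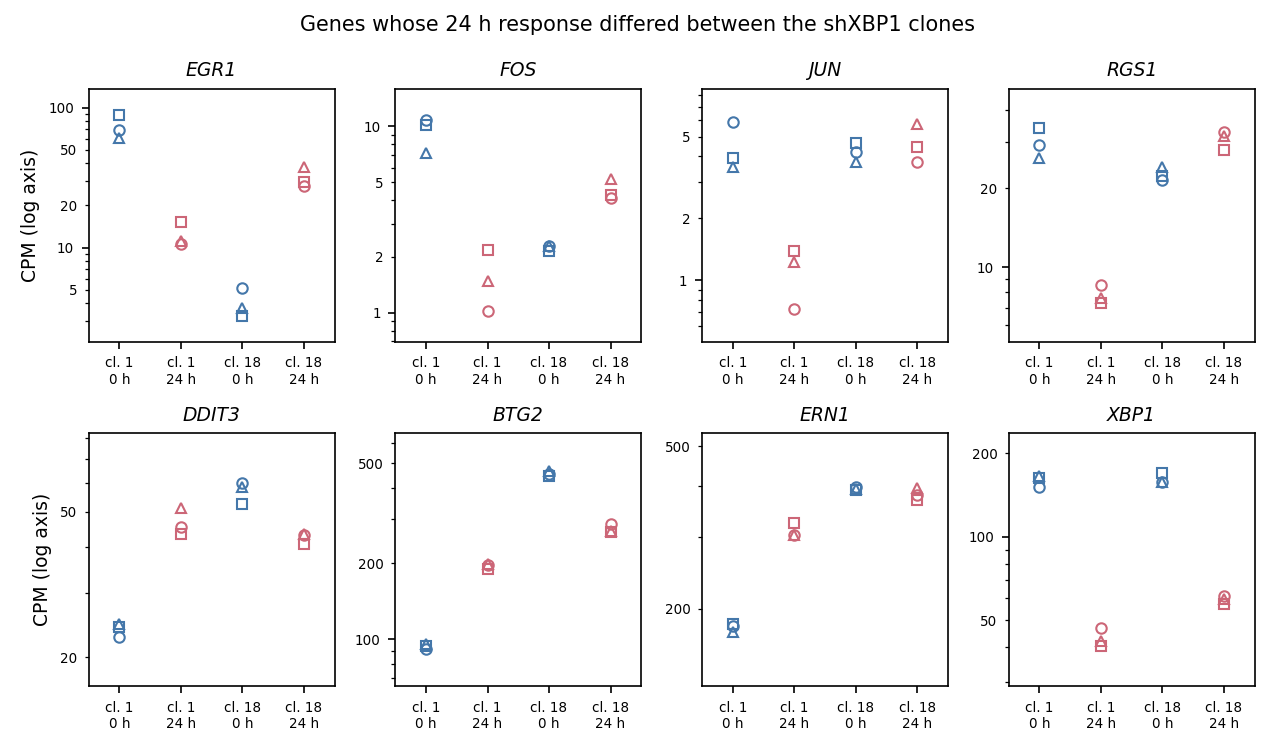
Levels of 8 genes (CPM on a log axis, scaled over the 12 libraries of both clones) at 0 h (blue) and 24 h (red) in clone 1 and clone 18, with circles, squares and triangles for replicates 1, 2 and 3. EGR1, FOS, JUN and RGS1 drop in clone 1 only, DDIT3 and BTG2 rise in clone 1 and fall in clone 18, and XBP1 drops in both.

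Clone 1 with shRNAs against IRE1, the enzyme upstream of XBP1s, was compared over the same day. In that clone ERN1 mRNA fell by 0.29 at 24 h on the log2 scale and XBP1 mRNA did not pass the test (0.08). The test of the difference between shXBP1 clone 1 and shIRE1 clone 1 called 3557 of 17071 genes (20.8%). DNAJB9, SEC24D and SDF2L1 fell in both, with log2 fold changes of -0.94, -0.73 and -1.04 after XBP1 shRNA in the joint fit and of -1.06, -0.56 and -0.94 after IRE1 shRNA, and these differences did not pass the test (adjusted p = 0.549, 0.202 and 0.877). HSPA5 fell by 1.31 after IRE1 shRNA, a difference of 1.25 (adjusted p = 5.77e-08). CD59 and DGAT2 fell after XBP1 shRNA and rose by 0.42 and 1.69 after IRE1 shRNA. IRF4 fell by 0.42 and PRDM1 by 0.73 after IRE1 shRNA, and the responses differed by 0.57 (adjusted p = 3.13e-05) and 0.55 (adjusted p = 2.31e-05). E2F1 fell by 1.49 and CDKN1A rose by 0.63 there, and both differed from clone 1 of the shXBP1 line, by 1.15 and -0.87.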

How the data were processed

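RNA-seq counts per gene of 58302 genes were taken as the authors deposited them, together with their table of TMM-normalized log2 CPM values. Per the submitters' processing notes, reads were aligned with GSNAP and handled with edgeR 3.32.1, limma 3.46.0 and R 4.1.3, and the builds named are GRCh37 and hg19. The libraries were stranded, poly(A)-selected and read from 1 end. Counts were tested in R 4.3.3 with the quasi-likelihood test of edgeR 4.0.16 (TMM factors, filterByExpr with a minimum count of 10 and total of 15), on the 12 libraries of shXBP1 clone 1 at all times, with Benjamini-Hochberg adjustment and a threshold of 0.05. CPM values were scaled with the same factors. Differences in response between clones were interaction contrasts over 12 libraries. Alternatives were DESeq2 1.42.0, limma 3.58.1 on the deposited log2 values, other factors, filters and libraries, a replicate block, leaving out each library, and, added after the data were seen, offsets for GC content and length of the longest GENCODE 44 transcript. The tests were checked on simulated data. Genes named were chosen marker genes, the 10 largest rises and falls without overlap (mean log2 CPM over 1), and members of the lists with large changes, or against the median of their list. A few genes that this rule names are not reported here. The comparison, lists and marker genes were chosen with earlier results of these data known. Columns of no sample in the labels numbered 0.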

Additional observations from a re-analysis of the deposited data

Results flagged for a closer look

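The 24 h response of 1901 genes differed between shXBP1 clones 1 and 18, and that of 3557 genes differed between shXBP1 clone 1 and shIRE1 clone 1, by the test of the difference itself (edgeR, adjusted p under 0.05). The values below are differences in log2 fold change at 24 h, 3 libraries per group and time.

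Between clone 1 and clone 18, XBP1 fell more in clone 1 (-0.44). The log2 fold changes of regulators and stress genes were higher in clone 1 than in clone 18, by 0.83 for ERN1, 1.40 for DDIT3 and 1.52 for CHAC1. So were those of ER genes, by 0.66 for EDEM1, 0.50 for HERPUD1 and 0.49 for the cochaperone DNAJB9, which fell in both clones. BLOC1S1, a reported target of IRE1 cleavage, differed by 0.43. The log2 fold change of the repressor PRDM1 was lower (-0.44), as it fell in clone 1 and rose in clone 18 (0.28). HERPUD1 and DDIT3 rose in clone 1 and fell in clone 18 (-0.29 and -0.42). Of the largest rises in clone 1, CES3 differed by 1.47, CBLN3 by 1.38, AMPD1 by 1.17, BMF by 1.26, THBS3 by 1.20, TCP11L2 by 1.37, AKAP6 by 1.51 and ZNF780A by 1.91. Of the largest falls, EGR1 differed by -5.56, FOS by -3.62, JUN by -2.14, RGS1 by -2.38, DHRS2 by -2.27 and MIR22HG by -1.02. In clone 18 itself EGR1, FOS and RGS1 were called higher (3.00, 1.03 and 0.44) and ZNF780A lower (-0.63), opposite to clone 1. As the largest rises and falls were chosen for their size in clone 1, a smaller change in clone 18 is partly built into the choice.

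Between shXBP1 clone 1 and shIRE1 clone 1, the responses of the targeted genes differed by -1.98 for XBP1 and 1.06 for ERN1. The chaperone gene HSPA5 differed by 1.25, EIF2AK3 by 0.31, EDEM1 by 0.74, HERPUD1 by 0.70 and DDIT3 by 0.93, all higher after XBP1 shRNA. SEC61B (-0.74), CD59 (-1.37) and DGAT2 (-2.70) were lower. The plasma cell factors IRF4 and PRDM1 differed by 0.57 and 0.55, and the cell cycle genes E2F1 and CDKN1A by 1.15 and -0.87.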

How the results depend on the processing

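The fall of XBP1 kept its direction and call under every alternative run. Counts of changed genes moved more. At 24 h 4430 genes were called, 2086 (1231 higher, 855 lower) with only the 6 libraries fitted and 7347 (4042 lower) with the GC and length offsets, which shared 4169 calls. When 1 library was left out, the falls numbered 1276 (24 h replicate 3 omitted) at the lowest and 2514 (24 h replicate 2 omitted) at the highest. Replicate numbers did not pair the samples: same-numbered libraries had deviations correlated at -0.86, -0.76 and 0.22, and with the replicate block 3469 genes were called.

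Of the 218 genes followed, 57 lost their call with only the 6 libraries, 42 with 24 h replicate 3 omitted, 36 with 0 h replicate 1 omitted, 31 with 24 h replicate 1 omitted and 26 with the replicate block, and 3 to 15 under the other alternatives.

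The difference in 24 h response, shXBP1 clone 1 minus clone 18, gave 3163 genes with all 48 libraries, 3681 without the clone 18 library of number 3 at 72 h, 1163 with the replicate block, 5066 with the offsets, and 1102 to 2489 when a library was left out. The difference in 24 h response, shXBP1 clone 1 minus shIRE1 clone 1, gave 6106 genes with the offsets.

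All values that reversed were ones that had not passed the test. With the offsets ATF6 was -0.11 (then called lower, adjusted p = 0.00816) and TRIB3 0.09 at 24 h. Leaving out a library gave -0.03 to 0.08 for ATF6, -0.26 to 0.03 for TRIB3 and -0.36 to 0.62 for ASNS. For the difference between clones, the offsets gave -0.08 for ATF6, -0.03 for SEC24D, 0.10 for TRIB3 and 0.03 for E2F1, and limma gave 0.00 for ATF6. CDKN1A was -0.01 with RLE factors, with 47 libraries and with DESeq2, and -0.02 with limma. Leaving out a library gave -0.06 to 0.08 for ATF6, -0.02 to 0.06 for SEC24D, -0.35 to 0.62 for ASNS, -0.24 to 0.04 for TRIB3 and -0.05 to 0.08 for CDKN1A. For the difference from shIRE1, the offsets gave -0.03 for ATF6, -0.04 for DNAJB9, 0.61 for SDF2L1 and 0.25 for TRIB3, and leaving out a library gave -0.33 to 0.31 for SDF2L1 and -0.25 to 0.04 for TRIB3. In promoter windows from 120 bases before to 50 after the start, 0.134% of the genes that fell (2 windows) held ERSE. The XBP1 core was in 4.83% of them and the ATF4 composite in 0.805%. Over the windows of all genes tested, these shares were 0.0663%, 2.96% and 0.919%. The shorter windows lie within the longer ones, so that their shares cannot be higher. The cause of the other shifts was not tested.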

Other observations

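Immediate-early genes, which growth factor and stress signals switch on within minutes, were listed after EGR1, FOS and JUN had been seen among the largest falls, so the list supports nothing by itself. Of 28 tested, 15 fell and 2 rose in clone 1 (median -0.50), beside 12.8% falls and 13.9% rises over all genes. Beside FOS and EGR1, the transcriptional inhibitor ID2 fell by 1.38 on the log2 scale, the G protein regulator RGS2 by 1.34, the phosphatase gene DUSP1 by 1.33 and the AP-1 subunit JUNB by 1.19. DUSP5, a phosphatase of ERK, and SGK1, a kinase, rose by 0.22 and 0.31. Without the 0 h replicate 1 library 11 fell and 4 rose, and JUNB missed the threshold (adjusted p = 0.155, edgeR). In clone 18 the same list held 5 rises and 1 fall, beside 0.573% rises and 1.74% falls over all genes. The difference between clones was called for 2 genes higher and 9 lower in clone 1. Over all genes these shares were 7.65% and 3.46%.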
